A study of Mus musculus with 4 samples.

Results

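The genes described here are 49 genes that license, fire and run DNA replication forks, supply their nucleotides or drive entry into S phase. They were listed for their known function and matched by symbol, and all 49 were found among the 24421 genes listed for the series. RNA was sequenced from CD69+DP thymocytes, the CD4+CD8+ cells that have received a TCR signal and carry CD69, which were FACS-sorted from 6-week-old C57BL/6 mice. There were 4 samples, each sorted separately from different mice. All of the mice carried Foxa1fl/flFoxa2fl/fl alleles. The 2 control samples lacked the CD4Cre transgene and the 2 Foxa1/2cKO samples carried it. Cre was driven by the Cd4 promoter, in order to delete both Foxa genes from the DP stage onwards. Each gene was measured in FPKM, a read count set against gene length and library size, and differences are given on log2(FPKM + 1). The replicate spread is that between samples of different mice, with n = 2 in each group. The paper names 2 mice per genotype in each sort, which does not settle whether a sample pooled the cells of several mice.

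DNA replication begins when the origin recognition complex, Cdc6 and Cdt1 load the Mcm helicase ring on DNA before S phase, a step called licensing. Cdc7 kinase, Mcm10, Cdc45 and the GINS complex then turn the ring into an active helicase, and the clamp, its loader, the polymerases, Fen1 and Lig1 copy and join the DNA behind it. Many of these genes are transcribed under E2F factors and peak at the border of G1 and S phase, so that their RNA is high in cells that divide. In the thymus, cells divide rapidly as they pass from the DN through the immature single-positive to the early DP stage, and most DP cells that undergo selection are small and out of cycle.

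The check of the sort came before the replication genes. Cd4 lay between 342 and 446 FPKM, Cd8a between 475 and 666 and Cd69 between 103 and 121, so the defining markers of the sorted cells were present in all 4 samples. Foxa1 and Foxa2 were listed at 0 in all 4 samples, so their levels do not check the genotypes. The totals that scaled the FPKM ranged from 10796528 to 14968316 fragments, and the 49 genes were covered by 60 to 7662 recovered reads per gene and sample. The reads of the controls differed from each other by more than sampling noise, with a chi-square per gene of 3.44 over the genes tested, and the same measure was 27.5 between Foxa1/2cKO 1 and Foxa1/2cKO 2. The Foxa1/2cKO samples are also given apart below. This was set when the genes were chosen, with earlier results of these data known, and did not follow from the chi-square. Both samples were set against the same controls, so the values of the 2 samples share that reference.

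The replication genes did not behave alike in the 2 Foxa1/2cKO samples. In Foxa1/2cKO 1 their levels lay with the controls, and in Foxa1/2cKO 2 they were lower for nearly the whole machinery. The FPKM of the 49 genes summed to 1819 and 1942 for controls 1 and 2, to 1876 for Foxa1/2cKO 1 and to 1066 for Foxa1/2cKO 2. Relative to the mean of the controls the sum of Foxa1/2cKO 1 was 0.998 and that of Foxa1/2cKO 2 was 0.567. Foxa1/2cKO 2 was the lowest of the 4 samples for 48 of the 49 genes, against 33.3% of the 10776 genes tested, and the exception was Rpa1.

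In Foxa1/2cKO 2 the difference from the mean of the controls had a median of -0.92 on the log2 scale and ran from -1.70 for Rrm2 to 0.22 for Rpa1. It was -0.5 or below for 43 of the 49 genes, against 8.96% of all genes tested, and -1 or below for 21 genes, against 2.81%. It reached 0.5 or above for 0 genes, against 3.03%. In Foxa1/2cKO 1 the same difference had a median of -0.00 and ran from -0.48 for Gins1 to 0.21 for Pola1. It was within 0.2 of 0 for 46 genes and reached 0.5 in either direction for 0 genes, against 1.25% of all genes for lower and 1.99% for higher values. Foxa1/2cKO 1 lay between the controls for 23 genes, below both for 16 and above both for 10, where 22.9%, 40.7% and 36.4% of all genes did so. Among the controls, control 2 was the higher for 43 of the 49 genes, against 52.7% of all genes, with a median difference of 0.10.

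**Figure D1:**
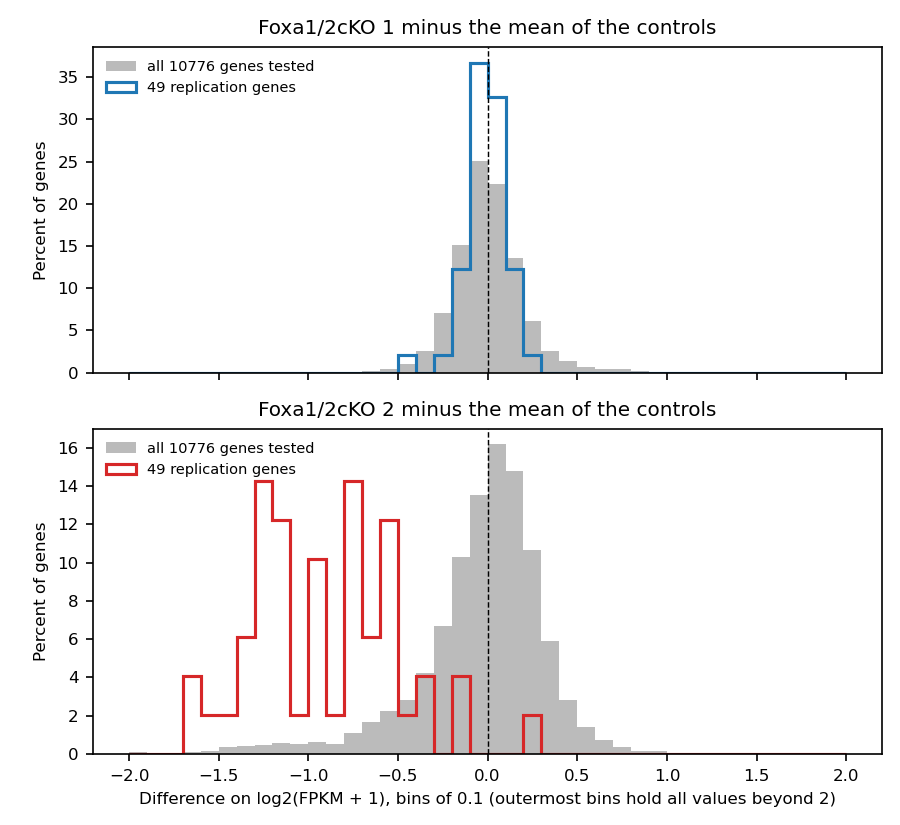
Share of genes in percent by their difference from the mean of the 2 controls on log2(FPKM + 1), for Foxa1/2cKO 1 (top) and Foxa1/2cKO 2 (bottom). Grey bars are the 10776 genes tested and the outlines are the 49 replication genes, which centre on -0.00 in Foxa1/2cKO 1 and on -0.92 in Foxa1/2cKO 2.

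The comparison of the groups, 2 controls against 2 Foxa1/2cKO, tests whether loss of Foxa1 and Foxa2 went with a change in these genes. All 49 genes passed the filter on low values, which asked for 2 or more samples with an FPKM of 1 or above. In limma, with Benjamini-Hochberg adjustment over all 10776 genes, 0 of the 49 passed an adjusted p of 0.05, where 0.00928% of all genes did (1 gene), and the adjusted p of the 49 ran from 0.863 to 0.996. The group mean was lower in Foxa1/2cKO for 48 genes, against 48.7% of all genes, and the median log2 difference was -0.48, against 0.01 over all genes. At an unadjusted p under 0.05, Gins1 was lower, where 2.15% of all genes were lower, and 0 members were higher, against 2.39%. Both Foxa1/2cKO samples lay below both controls for 16 genes, against 17.8% of all genes, and these were the same 16 genes for which Foxa1/2cKO 1 lay below both controls. Rpa1 was the only one of the 49 above both controls in both Foxa1/2cKO samples, as were 18.9% of all genes.

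The group comparison rested on Foxa1/2cKO 2. Without that sample the median log2 difference was -0.00 and 0 genes passed, where 0.176% of all genes did. Without Foxa1/2cKO 1, 47 of the 49 genes passed an adjusted p of 0.05 in limma, 46 of them lower and Rpa1 higher, with adjusted p from 0.000551 to 0.22, and the genes that did not pass were Gins4 and Pola2. In that fit 23.7% of all genes passed and 11.3% were lower, and the lone Foxa1/2cKO sample was assumed to vary like the controls. It compares that library with the controls, not the genotypes. In RNA from a bulk sort, fewer dividing cells and less RNA of these genes per cell cannot be told apart.

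**Figure D2:**
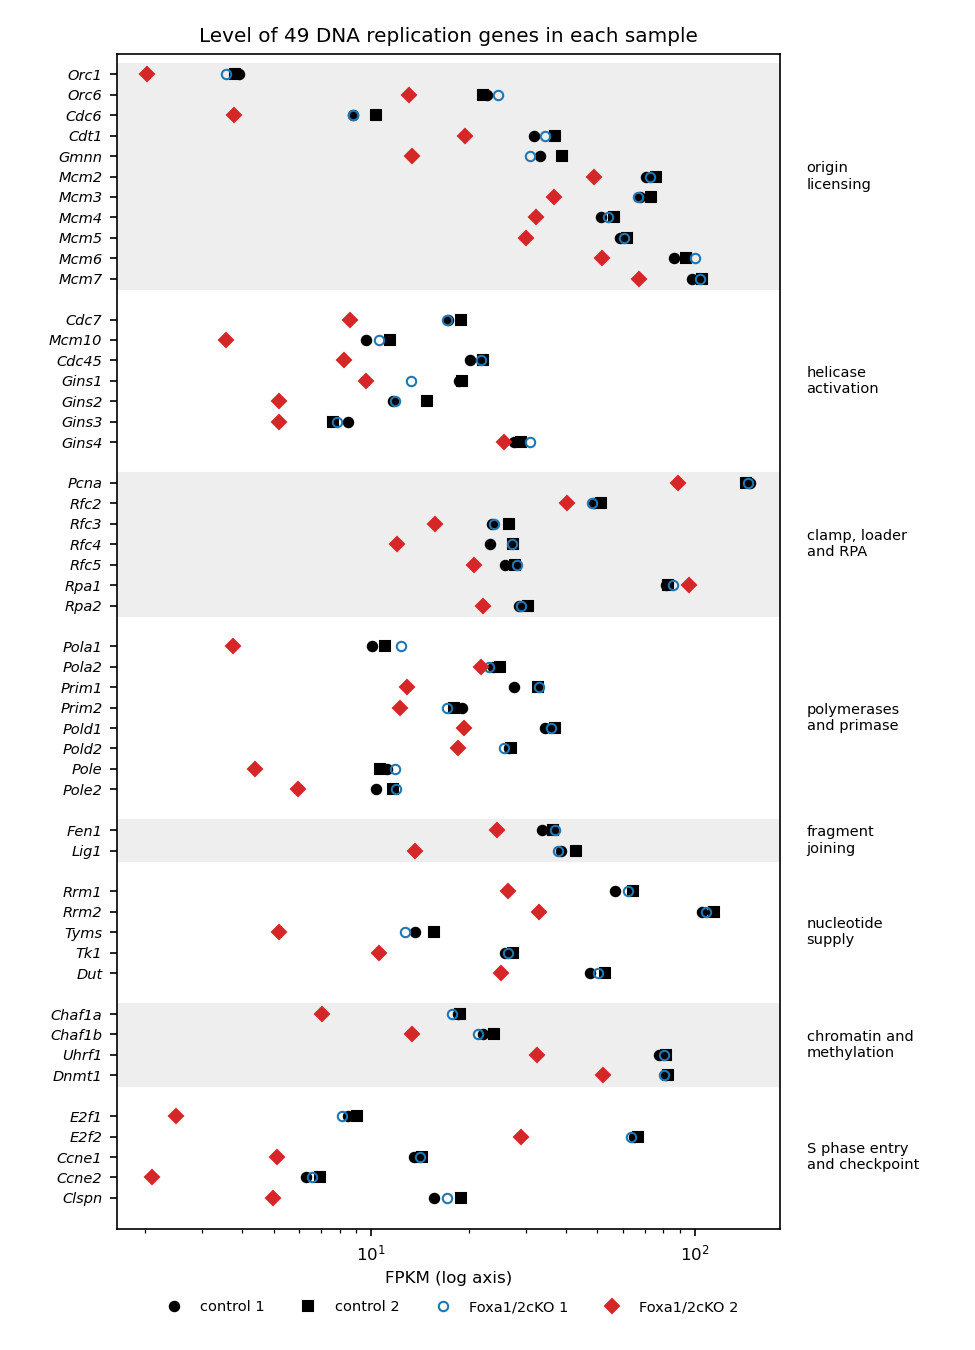
FPKM (log axis) of each of the 49 replication genes in the 4 samples, grouped by role. In 48 rows the diamond of Foxa1/2cKO 2 is the leftmost point, and the open circles of Foxa1/2cKO 1 lie among or near the filled symbols of the controls.

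As the members lay low together in 1 sample, their promoters were read for E2F-type motifs. The letters searched were TTTCCCGC, TTTGGCGC, TTTCGCGC and TTTGCCGC on both strands, in windows from 250 bases before to 50 bases after the transcript start in RefSeq (GRCm38.p6, the assembly of mm10). These motifs can overlap each other. A window was given for 40 of the 49 genes (all but Prim2, Pole, Rfc2, Gins2, Gins1, Ccne2, Mcm4, Gmnn and Gins4). Of their 50 windows, 34% held at least 1 match, against 2.26% of all 32851 windows. The 17 genes with a match were Orc1, Cdc6, Cdt1, Mcm3, Mcm5, Mcm6, Mcm7, Gins3, Rfc3, Pola1, Pold1, Pole2, Lig1, Uhrf1, Dnmt1, E2f2 and Clspn. The ratio of Foxa1/2cKO 2 to the pooled controls had a median of 0.529 (0.29 to 0.662) in the 17 genes with a match. In the 23 genes with none the median was 0.477 (0.285 to 1.17). The ranges overlap, and the part of E2F factors in these levels was not tested.

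The 250 bases upstream of the start are shown for 3 genes with a match and for Rrm2, the gene furthest below the controls in Foxa1/2cKO 2 on the log2 scale, which has none. Capitals mark the matches, and each is written 5′ to 3′ on the strand of its gene. They are Mcm6 at chr1:128359706-128359955 (minus strand), with 2 overlapping matches and 1 nearer the start, Gins3 at chr8:95633309-95633558 (plus strand), Rfc3 at chr5:151651209-151651458 (minus strand) and Rrm2 at chr12:24708004-24708253 (plus strand).
Mcm6: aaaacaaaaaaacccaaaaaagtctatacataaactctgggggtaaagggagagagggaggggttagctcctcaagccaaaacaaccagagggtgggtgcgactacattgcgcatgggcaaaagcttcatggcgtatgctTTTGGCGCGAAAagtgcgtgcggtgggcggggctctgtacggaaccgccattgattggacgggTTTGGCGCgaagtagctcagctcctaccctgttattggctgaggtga
Gins3: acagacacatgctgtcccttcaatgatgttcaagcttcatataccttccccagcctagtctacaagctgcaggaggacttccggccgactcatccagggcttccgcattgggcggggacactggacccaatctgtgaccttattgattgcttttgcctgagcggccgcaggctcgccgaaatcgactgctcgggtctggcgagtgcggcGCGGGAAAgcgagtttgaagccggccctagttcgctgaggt
Rfc3: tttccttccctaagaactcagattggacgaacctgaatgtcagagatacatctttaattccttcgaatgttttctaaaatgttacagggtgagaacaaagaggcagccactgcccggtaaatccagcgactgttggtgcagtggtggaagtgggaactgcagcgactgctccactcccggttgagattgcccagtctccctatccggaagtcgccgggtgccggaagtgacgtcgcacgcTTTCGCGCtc
Rrm2: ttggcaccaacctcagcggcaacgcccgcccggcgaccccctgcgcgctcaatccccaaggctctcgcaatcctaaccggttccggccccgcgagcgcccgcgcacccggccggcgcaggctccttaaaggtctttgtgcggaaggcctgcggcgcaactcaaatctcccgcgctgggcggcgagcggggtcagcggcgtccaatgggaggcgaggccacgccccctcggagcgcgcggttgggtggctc
A match is a string of letters and not a measured site of binding, and its absence says only that these letters are not in the window.

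The licensing genes load the helicase. All 11 were lowest in Foxa1/2cKO 2, at 0.372 to 0.669 of the pooled controls, and lay at 0.862 to 1.11 of them in Foxa1/2cKO 1. Gmnn encodes geminin, the inhibitor that holds Cdt1 back once S phase has begun, and was the lowest of the group relative to the controls. It was measured at 33.3 and 38.9 FPKM in the controls, with Foxa1/2cKO 1 at 31.0 and Foxa1/2cKO 2 at 13.4. Its ratio to the pooled controls in Foxa1/2cKO 2 was 0.372, with a 95% counting interval of 0.310 to 0.443, and both Foxa1/2cKO samples lay below both controls. Over the groups its log2 difference was -0.79 ± 0.39 (SE, limma, adjusted p = 0.863).

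Cdc6, the ATPase that helps the origin complex to load the ring, was at 8.81 and 10.4 FPKM in the controls, with Foxa1/2cKO 1 at 8.83 and Foxa1/2cKO 2 at 3.78, and its log2 difference was -0.63 ± 0.36 (limma, adjusted p = 0.863). Foxa1/2cKO 1 thus lay within the controls and Foxa1/2cKO 2 well outside them. Orc1, the subunit of the origin complex that joins it anew in each cycle, was the least abundant of the 49 genes, at 3.90 and 3.79 FPKM in the controls, with Foxa1/2cKO 1 at 3.57 and Foxa1/2cKO 2 at 2.04. Orc6, another subunit, was at 22.9 and 22.2, then 24.6 and 13.1 FPKM, where, as below, the first pair gives controls 1 and 2 and the pair after "then" Foxa1/2cKO 1 and 2. Cdt1, which brings the ring to the origin, was at 31.9 and 37.0 FPKM in the controls, with Foxa1/2cKO 1 at 34.5 and Foxa1/2cKO 2 at 19.5. The other subunits of the origin complex did not share this level in Foxa1/2cKO 2, where Orc2 lay at 0.891, Orc3 at 1.06, Orc4 at 1.03 and Orc5 at 1.11 of the pooled controls.

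The subunits of the Mcm ring were among the most abundant of the 49 genes. Mcm2 was at 70.6 and 75.7 FPKM in the controls (73.2 ± 3.62, SD, n = 2), with Foxa1/2cKO 1 at 72.6 and Foxa1/2cKO 2 at 48.8. Mcm3 was at 67.6 and 73.3, then 66.8 and 36.7 FPKM. Both genes had a lower group mean in Foxa1/2cKO that came from Foxa1/2cKO 2, with a log2 difference of -0.29 ± 0.20 for Mcm2 and -0.50 ± 0.29 for Mcm3 (limma, adjusted p = 0.863 for both). Mcm4, Mcm5, Mcm6 and Mcm7 ranged from 51.4 to 105 FPKM in the controls, from 54.0 to 104 in Foxa1/2cKO 1 and from 30.1 to 67.0 in Foxa1/2cKO 2. Although the ring holds each subunit once, the ratio of Foxa1/2cKO 2 to the controls was not the same for all of them, at 0.669 (0.635 to 0.704) for Mcm2 and 0.662 (0.628 to 0.698) for Mcm7 and 0.522 (0.490 to 0.556) for Mcm3 and 0.4995 (0.469 to 0.532) for Mcm5, with intervals that do not overlap between these pairs. Of the Mcm7 sequence, 34.2% of 50-base stretches also occurred in transcripts of other genes, so its level is less certain. Gm5487 was the gene that shared the most of them. Mcm6, with its 3 motif matches shown above, lay above both controls in Foxa1/2cKO 1, at 100.2 FPKM against 86.2 and 94.1, and at 51.5 in Foxa1/2cKO 2.

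The genes that activate the helicase had a median ratio of 0.477 in Foxa1/2cKO 2, over a range from 0.340 to 0.910. Cdc7, the kinase that fires licensed origins, was at 17.3 and 18.9 FPKM in the controls, with Foxa1/2cKO 1 at 17.1 and Foxa1/2cKO 2 at 8.62, with a log2 difference of -0.53 ± 0.31 (limma, adjusted p = 0.863). Mcm10, which helps the helicase to start, was at 9.62 and 11.5, then 10.6 and 3.57 FPKM. Cdc45, a subunit of the active helicase, was at 20.2 and 22.1, then 21.9 and 8.24 FPKM. For Mcm10 and Cdc45, Foxa1/2cKO 1 lay between the controls.

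Gins1 was the member for which Foxa1/2cKO 1 was also furthest from the controls. It encodes a subunit of GINS, the complex that holds Cdc45 and the Mcm ring together. It was at 18.7 and 19.1 FPKM in the controls, with Foxa1/2cKO 1 at 13.3 and Foxa1/2cKO 2 at 9.64, so the groups did not overlap. Its ratio to the pooled controls was 0.702 (0.588 to 0.835) in Foxa1/2cKO 1 and 0.510 (0.418 to 0.620) in Foxa1/2cKO 2. The log2 difference was -0.69 ± 0.16 (limma, adjusted p = 0.863). Without Foxa1/2cKO 2 it was -0.48, with an adjusted p of 0.109 in limma.

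The other GINS subunits differed from each other in Foxa1/2cKO 2. Gins2 was at 11.7 and 14.9 FPKM in the controls, with Foxa1/2cKO 1 at 11.9 and Foxa1/2cKO 2 at 5.21, with a log2 difference of -0.67 ± 0.37 (limma, adjusted p = 0.863). In GENCODE, 2758 of its exon bases (70.7%) overlap Gse1 on the opposite strand. The gene model behind its FPKM was 1038 bases long, so the overlap of the counted bases is not known. The strand setting of the counting was not stated either, so reads of the 2 genes may not be told apart. Gins3 was at 8.48 and 7.60, then 7.87 and 5.19 FPKM. Gins4 was at 27.6 and 29.0 FPKM in the controls, with Foxa1/2cKO 1 at 30.9 and Foxa1/2cKO 2 at 25.7. Its ratio of 0.910 (0.808 to 1.02) was the only one of the 49 in Foxa1/2cKO 2 whose counting interval held 1. Within the complex the ratios thus ran from 0.394 for Gins2 to 0.910 for Gins4, and the intervals of these genes, 0.295 to 0.518 and 0.808 to 1.02, do not overlap.

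The clamp, clamp loader and single-strand binding genes lay nearest to the controls, with a median ratio of 0.749 in Foxa1/2cKO 2 and all of them at 0.955 to 1.07 in Foxa1/2cKO 1. Pcna, the sliding clamp that holds polymerases on DNA, was the most abundant of the 49 genes in both controls and in Foxa1/2cKO 1. It was at 148 and 144 FPKM in the controls, with Foxa1/2cKO 1 at 146 and Foxa1/2cKO 2 at 88.4, with a log2 difference of -0.36 ± 0.25 (limma, adjusted p = 0.863). Pcna shared 31.8% of its 50-base stretches with transcripts of other genes, which leaves its level less certain. The gene that shared the most of them was Pcna-ps2, a pseudogene. Foxa1/2cKO 1 lay between the controls for Pcna.

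The clamp loader places Pcna on DNA. Rfc3 was at 23.6 and 26.6 FPKM in the controls, with Foxa1/2cKO 1 at 23.9 and Foxa1/2cKO 2 at 15.7, with a log2 difference of -0.35 ± 0.21. Rfc2 was at 48.8 and 51.1, then 48.0 and 40.2 FPKM, with a difference of -0.18 ± 0.12 (limma, adjusted p = 0.863 for both). Rfc4 was at 23.3 and 27.5, then 27.2 and 12.0 FPKM, and Rfc5 was at 25.9 and 27.8, then 28.3 and 20.8 FPKM. The ratio of Foxa1/2cKO 2 to the controls was lowest for Rfc4, at 0.474 (0.398 to 0.561), and highest for Rfc2, at 0.805 (0.738 to 0.878). The large subunit of the loader, Rfc1, lay at 0.896 (0.821 to 0.978).

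Rpa1 went the other way from the rest. It encodes the large subunit of replication protein A, which coats single-stranded DNA in replication and also in DNA repair. Rpa1 was singled out after its values were seen. It was at 81.6 and 82.8 FPKM in the controls, with Foxa1/2cKO 1 at 85.4 and Foxa1/2cKO 2 at 95.7, which was the highest level of any of the 49 genes in that sample. Its ratio in Foxa1/2cKO 2 was 1.17 (1.12 to 1.21). The small partners of Rpa1 did not share this order, with Rpa2 at 28.6 and 30.6, then 29.0 and 22.2 FPKM, and Rpa3, which is outside the 49 genes, at 42.7 and 45.3, then 48.9 and 29.4 FPKM.

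All 8 polymerase and primase genes were lowest in Foxa1/2cKO 2, at 0.355 to 0.894 of the pooled controls. Primase makes the RNA primer and polymerase alpha extends it, and the genes of this complex differed widely in Foxa1/2cKO 2. Pola1, the catalytic subunit of polymerase alpha, was at 10.1 and 11.1 FPKM in the controls, with Foxa1/2cKO 1 at 12.4 and Foxa1/2cKO 2 at 3.74. Pola2, its partner, was at 23.8 and 25.0, then 23.2 and 21.8 FPKM. Pola1 in Foxa1/2cKO 1 was above both controls, at a ratio of 1.18 (1.07 to 1.28), and in Foxa1/2cKO 2 it was at 0.355 (0.307 to 0.408), whereas Pola2 was at 0.894 (0.819 to 0.975). Prim1, the catalytic primase subunit, was at 27.6 and 32.9, then 32.9 and 12.9 FPKM, and Prim2, the large primase subunit, was at 19.1 and 18.0, then 17.1 and 12.3 FPKM, with a log2 difference of -0.33 ± 0.17 (limma, adjusted p = 0.863).

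Polymerase delta and polymerase epsilon copy the lagging and the leading strand. Pold1, the catalytic subunit of delta, was at 34.4 and 37.0 FPKM in the controls, with Foxa1/2cKO 1 at 35.8 and Foxa1/2cKO 2 at 19.4, and Pold2 was at 26.6 and 27.1, then 25.7 and 18.5 FPKM. The log2 difference was -0.42 ± 0.29 for Pold1 and -0.29 ± 0.17 for Pold2 (limma, adjusted p = 0.863 for both). Pole, the catalytic subunit of epsilon, was at 11.2 and 10.7, then 11.8 and 4.39 FPKM, and Pole2 was at 10.4 and 11.7, then 11.9 and 5.96 FPKM. For both epsilon genes Foxa1/2cKO 1 lay above both controls and Foxa1/2cKO 2 below them. The accessory subunits outside the 49 genes were nearer to the controls for epsilon, with Pole3 at 0.805 and Pole4 at 0.940 in Foxa1/2cKO 2, and Pold3 lay at 0.588 and Pold4 at 0.910.

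Fen1 trims the flaps between Okazaki fragments and Lig1 seals them. Lig1 was at 38.7 and 42.8 FPKM in the controls, with Foxa1/2cKO 1 at 37.8 and Foxa1/2cKO 2 at 13.7, a ratio of 0.336 (0.306 to 0.367) in the last. Fen1 was at 33.7 and 36.4, then 37.1 and 24.5 FPKM, a ratio of 0.699 (0.638 to 0.765). The intervals of these neighbours in the same step do not overlap. The log2 difference over the groups was -0.81 ± 0.47 for Lig1 (limma, adjusted p = 0.863) and -0.21 ± 0.21 for Fen1 (limma, adjusted p = 0.870). Of the GENCODE exon bases of Fen1, 78.8% overlap Gm10143 on the opposite strand, so the 2 may not be told apart in these counts.

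The genes of nucleotide supply were among the lowest in Foxa1/2cKO 2, with a median ratio of 0.399 and a highest ratio of 0.502. Rrm2 and Rrm1 encode the subunits of ribonucleotide reductase, which makes deoxyribonucleotides, and the level of Rrm2 is tied to S phase. Rrm2 was at 105 and 114 FPKM in the controls (109.8 ± 6.66, SD, n = 2), with Foxa1/2cKO 1 at 108 and Foxa1/2cKO 2 at 33.1. Foxa1/2cKO 1 lay between the controls and Foxa1/2cKO 2 was 69.8% lower than the pooled controls, with a counting interval of the ratio of 0.281 to 0.325. The log2 difference over the groups was -0.86 ± 0.55 (limma, adjusted p = 0.863).

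Rrm1 was at 56.7 and 64.3 FPKM in the controls, with Foxa1/2cKO 1 at 62.0 and Foxa1/2cKO 2 at 26.5. Its ratio of 0.439 (0.412 to 0.467) was higher than that of Rrm2, with no overlap of the intervals. Rrm2b, the subunit that serves DNA repair outside S phase and is not among the 49 genes, was at 3.98 and 2.94, then 3.78 and 3.40 FPKM. Rrm2b in Foxa1/2cKO 2 thus lay between the controls, unlike Rrm2. Tyms, which makes thymidylate, was at 13.6 and 15.7, then 12.8 and 5.18 FPKM, and Tk1, the thymidine kinase of S phase, was at 25.9 and 27.4, then 26.5 and 10.6 FPKM. Their log2 differences were -0.76 ± 0.39 for Tyms and -0.63 ± 0.42 for Tk1 (limma, adjusted p = 0.863 for both). Dut, which keeps uracil out of DNA, was at 47.5 and 52.7, then 50.3 and 25.1 FPKM.

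Chromatin is rebuilt and DNA methylation copied behind the fork. Chaf1a and Chaf1b encode subunits of CAF-1, which places histones on new DNA. Chaf1a was at 18.6 and 18.9 FPKM in the controls, with Foxa1/2cKO 1 at 17.8 and Foxa1/2cKO 2 at 7.06, and Chaf1b was at 22.1 and 23.9, then 21.4 and 13.3 FPKM. Both Foxa1/2cKO samples lay below both controls for each gene, by little in Foxa1/2cKO 1, and the log2 difference was -0.68 ± 0.41 for Chaf1a and -0.42 ± 0.23 for Chaf1b (limma, adjusted p = 0.863 for both). The longest GENCODE transcript of Chaf1a shared 48.0% of its 50-base stretches with other transcripts, most with Ubxn6. Uhrf1, which brings Dnmt1 to newly copied DNA, was at 77.4 and 81.2, then 80.1 and 32.5 FPKM. Dnmt1, the maintenance methyltransferase, was at 81.2 and 82.7, then 80.1 and 52.1 FPKM, with a log2 difference of -0.34 ± 0.21 (limma, adjusted p = 0.863). The ratio in Foxa1/2cKO 2 was 0.410 (0.387 to 0.435) for Uhrf1 and 0.637 (0.614 to 0.660) for Dnmt1, which do not overlap, and 18.9% of the 50-base stretches of Uhrf1 occurred elsewhere.

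The genes of S phase entry and its checkpoint were the lowest group in Foxa1/2cKO 2, with a median ratio of 0.317 and a range from 0.285 to 0.443. In Foxa1/2cKO 1 the same 5 genes were at 0.931 to 1.01. E2f1, an activator of replication genes, was at 8.47 and 9.08 FPKM in the controls, with Foxa1/2cKO 1 at 8.16 and Foxa1/2cKO 2 at 2.50. Its ratio of 0.285 (0.226 to 0.357) was the lowest of the 49 genes in that sample. The log2 difference over the groups was -0.79 ± 0.47 (limma, adjusted p = 0.863).

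E2f2, another activator, was far more abundant, at 64.7 and 66.8 FPKM in the controls, with Foxa1/2cKO 1 at 63.7 and Foxa1/2cKO 2 at 29.1, with a log2 difference of -0.60 ± 0.37 (limma, adjusted p = 0.863). Ccne1 and Ccne2 encode the cyclins E, which activate Cdk2 at the start of S phase. Ccne1 was at 13.6 and 14.4, then 14.2 and 5.12 FPKM, and Ccne2 was at 6.31 and 6.95, then 6.59 and 2.10 FPKM, with a log2 difference of -0.65 ± 0.44 for Ccne2 (limma, adjusted p = 0.863). Clspn, which carries the signal of stalled forks to Chek1, was at 15.7 and 18.9, then 17.2 and 4.99 FPKM. For both cyclins and Clspn, Foxa1/2cKO 1 lay between the controls.

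**Figure D3:**
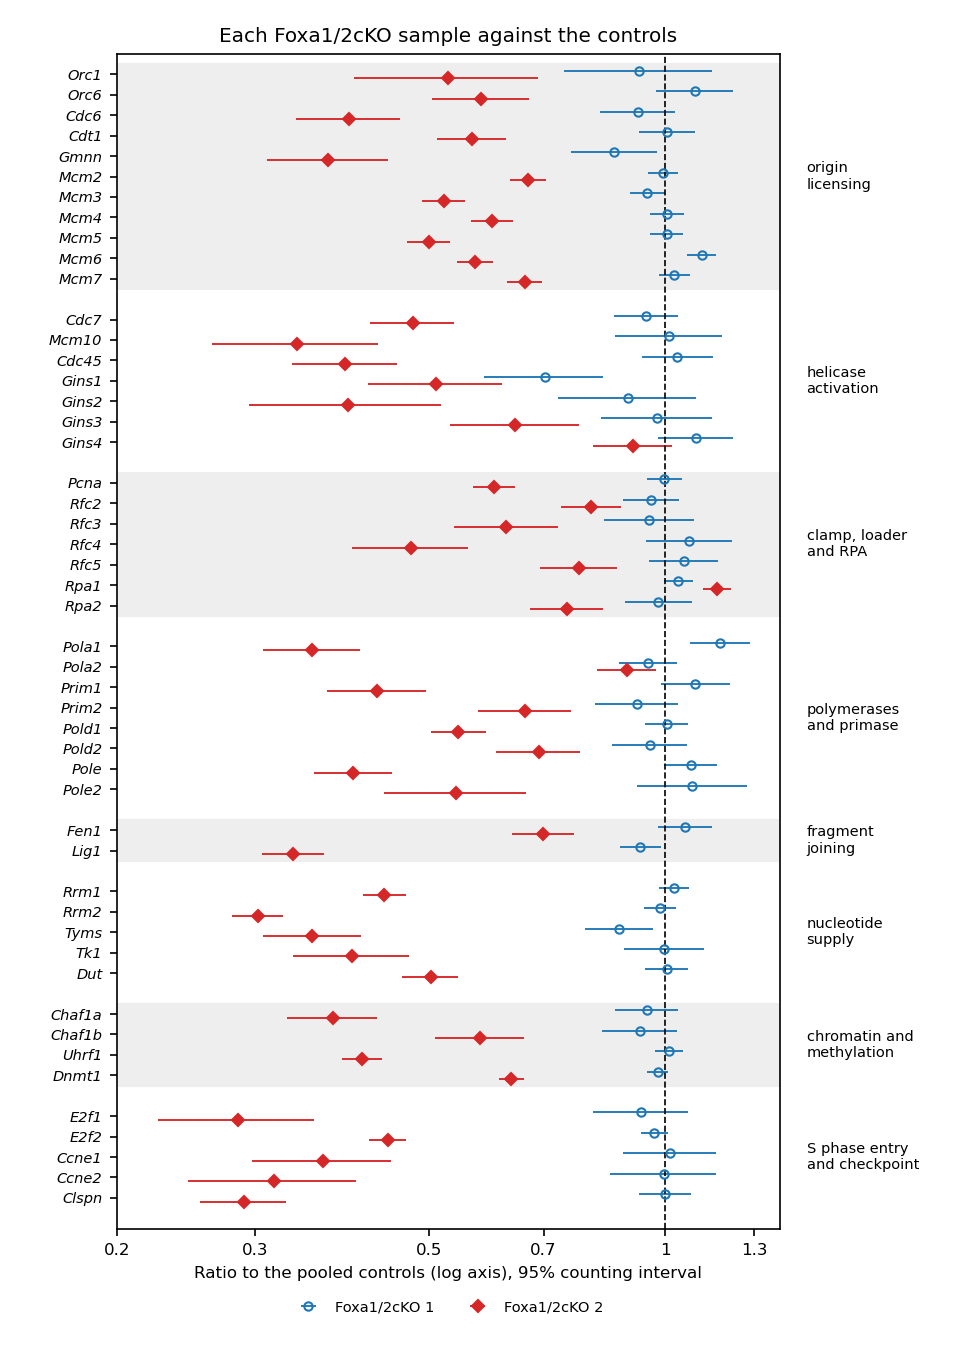
Ratio of Foxa1/2cKO 1 (open circles) and Foxa1/2cKO 2 (diamonds) to the pooled controls for each of the 49 genes, on a log axis, with 95% counting intervals and the dashed line at 1. The interval of Foxa1/2cKO 2 lies wholly below 1 for 47 genes, and that of Foxa1/2cKO 1 holds 1 for 42. The shares of all genes were not computed.

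Across the roles, the ratio of Foxa1/2cKO 2 to the pooled controls had a median of 0.51 and ran from 0.285 to 1.17. It was under 0.4 for 15 genes, from 0.4 to 0.7 for 28 and at least 0.7 for 6, namely Gins4, Rfc2, Rfc5, Rpa1, Rpa2 and Pola2. The counting interval of the ratio lay below 1 for 47 genes and above 1 for Rpa1. In Foxa1/2cKO 1 the ratios ran from 0.702 to 1.18, with an interval that held 1 for 42 genes, lay below 1 for 5 (Gmnn, Mcm3, Gins1, Lig1 and Tyms) and above 1 for 2 (Mcm6 and Pola1). These intervals cover counting error and not the spread between mice. The controls themselves differed by more than counting error, with a chi-square per gene of 3.44. The shares of all genes with an interval below or above 1 were not computed, so these counts are not set against the other genes.

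A wider list of 40 other replication genes followed the same order of samples to a smaller degree. All 40 were tested and 0 passed an adjusted p of 0.05 in limma, with 0 at an unadjusted p under 0.05. Foxa1/2cKO 2 was the lowest sample for 32 of them, against 33.3% of all genes, and was -0.5 or below for 19, against 8.96%. The median difference was -0.37 in Foxa1/2cKO 2 and 0.01 in Foxa1/2cKO 1. Among them Chtf18, of the alternative clamp loader, had the lowest ratio in Foxa1/2cKO 2, at 0.281 (11.1 and 10.6 FPKM in the controls, with Foxa1/2cKO 1 at 9.87 and Foxa1/2cKO 2 at 3.05), and Ticrr, which helps origins to fire, was at 0.289. The histone chaperone genes parted, with Asf1b, the form tied to dividing cells, at 36.4 and 38.9, then 36.7 and 15.3 FPKM, and Asf1a at 20.3 and 19.1, then 19.8 and 20.2 FPKM. Dck, the deoxycytidine kinase of nucleotide salvage, was at 75.9 and 82.0, then 82.3 and 85.6 FPKM, highest in Foxa1/2cKO 2. The genes singled out here were chosen after their values were seen, and by the rule for named genes Rnaseh2a had the smallest p of the list, with a log2 difference of -0.18 (limma, adjusted p = 0.863).

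The regulators of S phase outside the 49 genes were mixed. Of 20, 19 were tested and 0 passed in limma, with 0 at an unadjusted p under 0.05, and Cdkn1a was under the filter at 0.356 to 1.05 FPKM. Foxa1/2cKO 2 was lowest for 11, against 33.3% of all genes, and -0.5 or below for 7, against 8.96%. E2f8 and E2f7, repressors made in S phase, were at 20.0 and 21.9, then 18.7 and 5.37 FPKM and at 3.64 and 3.55, then 3.75 and 0.938 FPKM. E2f4, a repressor of resting cells, was at 68.5 and 67.1, then 60.6 and 64.7 FPKM. Rbl2, the partner of E2f4 in resting cells, was at 45.1 and 44.1, then 43.5 and 63.5 FPKM. Cdkn1b, an inhibitor of cyclin-dependent kinases, was at 58.6 and 53.9, then 58.3 and 67.1 FPKM. Foxa1/2cKO 2 was the highest sample for 3 of the genes tested, these and Cdk6 (7.98 and 7.13, then 8.10 and 8.28 FPKM). Cdkn1a was lowest there, at 0.356 FPKM. The genes given by level here were singled out after their values were seen. Atr had the smallest p of the list, with a log2 difference of 0.29 (limma, adjusted p = 0.863).

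The genes of G2 and mitosis were also low in Foxa1/2cKO 2, and in Foxa1/2cKO 1 their summed level was 1.11 of the mean of the controls. All 16 were lowest in Foxa1/2cKO 2, against 33.3% of all genes, and each was -1 or below on the log2 scale, against 2.81%. The median difference was -1.41, and 0 of 16 passed in limma, with 0 at an unadjusted p under 0.05. Their summed FPKM was 694 and 745 in the controls, with Foxa1/2cKO 1 at 799 and Foxa1/2cKO 2 at 265. Mki67, which marks cells in cycle, was at 89.3 and 93.3, then 112 and 32.5 FPKM. Foxa1/2cKO 1 was above both controls for 9 of the 16, against 36.4% of all genes. Plk1, the mitotic kinase with the smallest p of the list, was at 37.0 and 39.5, then 36.5 and 13.5 FPKM (log2 difference of -0.75, limma, adjusted p = 0.863). The median difference in Foxa1/2cKO 2 was larger for these genes than the -0.92 of the replication genes, and the difference between the lists was not tested.

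Markers of thymocyte stages also differed in Foxa1/2cKO 2, in both directions. The 8 markers of DN and immature single-positive thymocytes summed to 89.2 and 100.2 FPKM in the controls, with Foxa1/2cKO 1 at 87.2 and Foxa1/2cKO 2 at 34.4. All 8 were lowest in Foxa1/2cKO 2, against 33.3% of all genes, with none at 0. In Foxa1/2cKO 1, 5 of the 8 lay below both controls, against 40.7% of all genes, with a median log2 difference of -0.10. Ptcra, the pre-TCR alpha chain, was at 11.2 and 11.9, then 7.44 and 3.23 FPKM (limma, adjusted p = 0.863). The 8 markers of DP thymocytes summed to 2443 and 2488 FPKM in the controls, with Foxa1/2cKO 1 at 2522 and Foxa1/2cKO 2 at 3148. Of the 8, 6 were highest in Foxa1/2cKO 2, as were 4360 of the 10776 genes tested. Cd8b1 led the 6 markers, at 592 and 613, then 668 and 974 FPKM. Among markers of mature single-positive cells, Klf2 was at 37.0 and 43.0, then 43.4 and 17.0 FPKM, S1pr1 was at 12.3 and 13.9, then 13.4 and 6.40 FPKM, and Ccr7 was at 82.5 and 91.7, then 86.9 and 39.1 FPKM, lowest in Foxa1/2cKO 2 for each. Of the 4 markers in that list, 1 was highest in Foxa1/2cKO 2. Of the DN and immature single-positive markers 0 passed an adjusted p of 0.05 in limma. Ptcra and Notch3 were lower at an unadjusted p under 0.05 in limma, where 2.15% of all genes were lower. The part of these stages in the lower replication genes of Foxa1/2cKO 2 was not tested.

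Markers of cells outside the T lineage did not follow the same order. The 4 B cell markers summed to 73.1 and 48.7 FPKM in the controls, with Foxa1/2cKO 1 at 99.4 and Foxa1/2cKO 2 at 52.2. All 4 lay above both controls in Foxa1/2cKO 1, against 36.4% of all genes, with a median log2 difference of 0.77. The controls also differed in these markers, with a median of -0.76 for control 2 minus control 1. The 5 myeloid markers summed to 27.4 and 17.0, then 24.7 and 12.6 FPKM. Of the erythroid markers, 4 globin genes were listed at 0 in all 4 samples, and the 6 thymic epithelial markers summed to 3.76 to 4.84 FPKM. The markers with the smallest p were Cd8b1 (DP), Ptcra (DN and immature single-positive), Cd79b (B cell), Cd68 (myeloid), Alas2 (erythroid) and Epcam (thymic epithelial), each with an adjusted p of 0.863 or 0.864 in limma. Foxa1/2cKO 2 was thus lowest in its summed level for the myeloid list but not for the B cell, erythroid or epithelial lists.

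**Figure D4:**
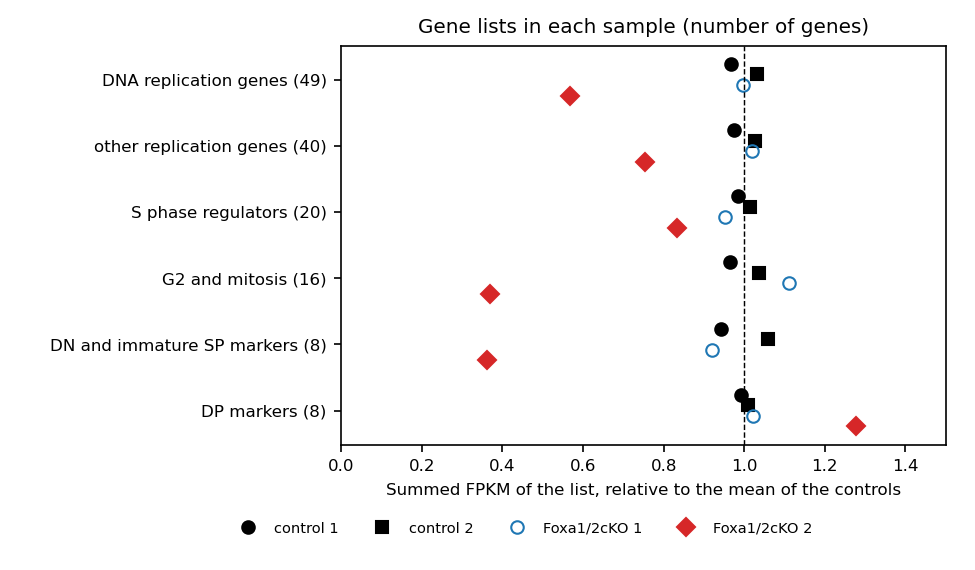
Summed FPKM of each gene list in the 4 samples, relative to the mean of the controls (dashed line at 1), with the number of genes in brackets. Foxa1/2cKO 2 lies at 0.567 for the 49 replication genes, 0.369 for G2 and mitosis and 0.363 for the DN and immature single-positive (SP) markers, and at 1.28 for the DP markers.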

How the data were processed

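CD69+DP thymocytes were FACS-sorted and their RNA sequenced, in 2 control and 2 Foxa1/2cKO samples. The authors aligned reads to mm10 with RefSeq genes, counted them with HTSeq in union mode and tested with DESeq2 and fdrtool, and the processing notes also name TopHat and Picard. The deposited values are FPKM per gene and sample, and the step from counts to FPKM is not given in the sources used here. The FPKM of each sample had been divided by a total proportional to a median-of-ratios size factor (0.8665 to 1.201). Whole reads were recovered from the steps of the values for 100% of 16069 genes above 0, within a tolerance of 0.002 reads, and came to 10396888 to 14482775 per sample. They set the counting intervals (95%, Clopper-Pearson on the share of reads), which cover counting error only.

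The groups were compared with limma 3.58.1 (R 4.3.3) with a mean-variance trend on log2(FPKM + 1), two-sided, over the 10776 genes that reached an FPKM of 1 in 2 or more samples, with Benjamini-Hochberg adjustment over all of them. With n = 2 per group, limma borrows the spread of other genes (prior degrees of freedom 2.69, residual 2). A ratio is the reads of a sample against those of the pooled controls, each over its total. The scripts were tested on simulated data.

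The 49 members, the role groups and the other lists were chosen with earlier results of these data known. Fold changes with SE are given for the 3 genes with the smallest p in each role group, plus Pcna, Mcm2 and E2f1, and the other genes are given by level. Coordinates and promoters are from RefSeq (GRCm38.p6). Exon overlaps are from all GENCODE exons of a gene and shared stretches from its longest GENCODE transcript. These models can differ from those counted. Whether the replicate numbers mark shared litters or days is not stated, and 27 symbols that had turned into dates were left as listed. Values of some listed genes are not reported here.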

Additional observations from a re-analysis of the deposited data

How the results depend on the processing

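Leaving out 1 sample decided the result. The number of replication genes past an adjusted p of 0.05 in limma ranged from 0 to 47 when 1 sample was left out, and the median log2 difference from -0.92 to -0.00485. The count of 47 and the median of -0.92 came without Foxa1/2cKO 1 (2559 of all genes passed), and the median of -0.00485 without Foxa1/2cKO 2 (19 of all genes passed), where the lone sample was assumed to vary like the controls. Pold1 ranged from -0.84 to 0.00611 and Fen1 from -0.50 to 0.0807, and both turned positive without Foxa1/2cKO 2. The cause was not tested.

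Under every other alternative (a pseudocount of 0.1, no filter or a stricter filter, upper-quartile or total scaling, no mean-variance trend, limma-voom on the recovered reads, a correction for gene length), 0 of the 49 genes passed, with a lowest adjusted p of 0.832, and the median stayed between -0.46 and -0.51. With the replicate number as a block the median was -0.48 and 0 genes passed. At an unadjusted p under 0.05 there were 3 genes against 1 without the block, and 5 when the length correction was added. The shares of all genes at that unadjusted p were not computed for the fits with the block. Over these alternatives, both fits with the block included, all 270 values of 27 genes (24 of the 49, Rnaseh2a, Atr and Plk1) kept their direction and their side of the threshold. Values of the marker genes under the alternatives are not reported. The correlation of the deviations of same-numbered samples was -0.0587. With 2 samples per group, this value cannot decide whether the numbers pair the samples. Foxa1/2cKO 2 was lowest for 48 genes under both scalings and the length correction, which were added for this count after seeing the data.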
